A study of Mus musculus with 8 samples.

Results

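The laminin, nidogen and integrin genes are the 42 genes of the deposited count table whose symbol is that of a numbered laminin α, β or γ chain, of nidogen 1 or 2, or begins with Itga or Itgb, out of 19150 genes in all. They comprise 5 laminin α, 3 laminin β and 3 laminin γ chains, 2 nidogens, 17 integrin α and 9 integrin β chains, and 3 genes that are not subunits but bind an integrin or carry its name (Itgb1bp1, Itgb1bp2 and Itgb3bp). RNA was sequenced from the whole lungs of mouse embryos (C57BL) late in gestation, at E17.5, from which the oesophagus, trachea and bronchi had been taken off. Mutant embryos expressed a constitutively active TGF-β receptor 1 in the lung epithelium, and controls are given only as controls; the labels do not name the promoter or Cre line behind the transgene. The groups were mutant males, control males, mutant females and control females, with 2 libraries each, and whether each library is an animal of its own is left unsaid in the labels. P-values here therefore rest on the spread between these libraries, part of which may be technical.

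Laminins are trimers of 1 α, 1 β and 1 γ chain that form the sheet-like polymer of the basement membrane, the thin matrix under every epithelium and around vessels and smooth muscle. Nidogens link that polymer to the collagen IV network, and integrins, which are pairs of 1 α and 1 β chain, are the membrane receptors through which cells hold on to laminin, fibronectin, collagen and other ligands. In the lung, laminin with the α5 chain is the main epithelial laminin and is needed for lobe formation and alveolar development, laminin with the α3 chain anchors epithelium through integrins α3β1 and α6β4, and the integrins αvβ6 and αvβ8 release active TGF-β from its latent complex.

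Each library had 17561012 to 20243205 reads in genes, of which the 42 members held 0.781% to 0.990%. All 42 passed the filter on low counts. Tgfbr1 had 87.8 ± 7.45 CPM (reads scaled to library size) in mutants and 87.6 ± 8.21 CPM in controls (SD, n = 4 each), so its counts did not tell the genotypes apart, while Xist and Uty matched the sex label in 8 of 8 libraries. Markers of the lung epithelium, type 1 and type 2 alveolar cells, endothelium, smooth muscle and fibroblasts were present in every library.

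To compare genes with each other, levels are given as RPKM over merged exons (reads scaled to exon length and library size), as the mean of 8 libraries ± SD. Among laminin α chains the order was Lama5 at 92.5 ± 17.8, Lama3 at 59.7 ± 10.5, Lama4 (the α chain of vessel walls) at 39.4 ± 4.17, Lama2 (that of muscle and mesenchyme) at 6.0 ± 0.991 and Lama1 (that of early embryonic epithelium) at 1.23 ± 0.231. The libraries of Lama5 and Lama3 overlapped, as did those of Lama3 and Lama4, whereas Lama4, Lama2 and Lama1 were each separate from the next. Among β chains Lamb1 had 73.9 ± 4.68, Lamb2 55.6 ± 9.30 and Lamb3 28.9 ± 5.13. Lamc1, the γ chain of most laminins, stood at 148 ± 13.9 and Lamc3 at 2.85 ± 0.893. Nid1 stood at 102 ± 4.31 and Nid2 at 29.8 ± 1.09, with no overlap and the smallest spread of any laminin or nidogen relative to their levels.

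Integrin β chains were dominated by Itgb1, the shared partner of most α chains, at 298 ± 19.2, or 88.6% of the summed β chain level. Itgb5 followed at 20.7 ± 1.55, then Itgb6, an epithelial chain that pairs only with αv, at 8.97 ± 3.08, Itgb2, the leukocyte chain, at 3.60 ± 0.904, Itgb3 at 2.30 ± 0.299, and Itgb4, the partner of α6 in hemidesmosomes, at 1.42 ± 0.271. Itgb2l, Itgb7 and Itgb8 lay at 0.592, 0.514 and 0.265, and the libraries of these 3 genes overlapped. The α chains ran more evenly: Itga6, a laminin receptor chain, led at 42.4 ± 3.22, apart from the rest. The laminin receptor chain Itga3 (23.8 ± 3.26), the tenascin receptor chain Itga9 (20.9 ± 4.19), the mesenchymal chain Itga8 (20.5 ± 2.04) and the fibronectin receptor chain Itga5 (17.6 ± 0.441) came next, with overlap between neighbours. Itgav had 12.2 ± 1.30, the collagen receptor chains Itga1 and Itga2 had 9.62 ± 1.39 and 7.35 ± 0.860, and the other 9 α chains lay between 0.138 (Itgax) and 4.07 (Itga4). The authors' deposited RPKM values divide by another length, over 1.5 times the merged exons for 26 of the 42 members but shorter for some. For Lamb1 it was 20404 bases, against 9917 bases of merged exons, and for Itga1 6013 against 18599. These values put Lamb2 above Lamb1 and Itga1 first among the α chains, so the place of Itga1 depends on the length used. They kept the rank of 3 of 17 α chains, 5 of 9 β chains and 5 of 5 laminin α chains.

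**Figure D1:**
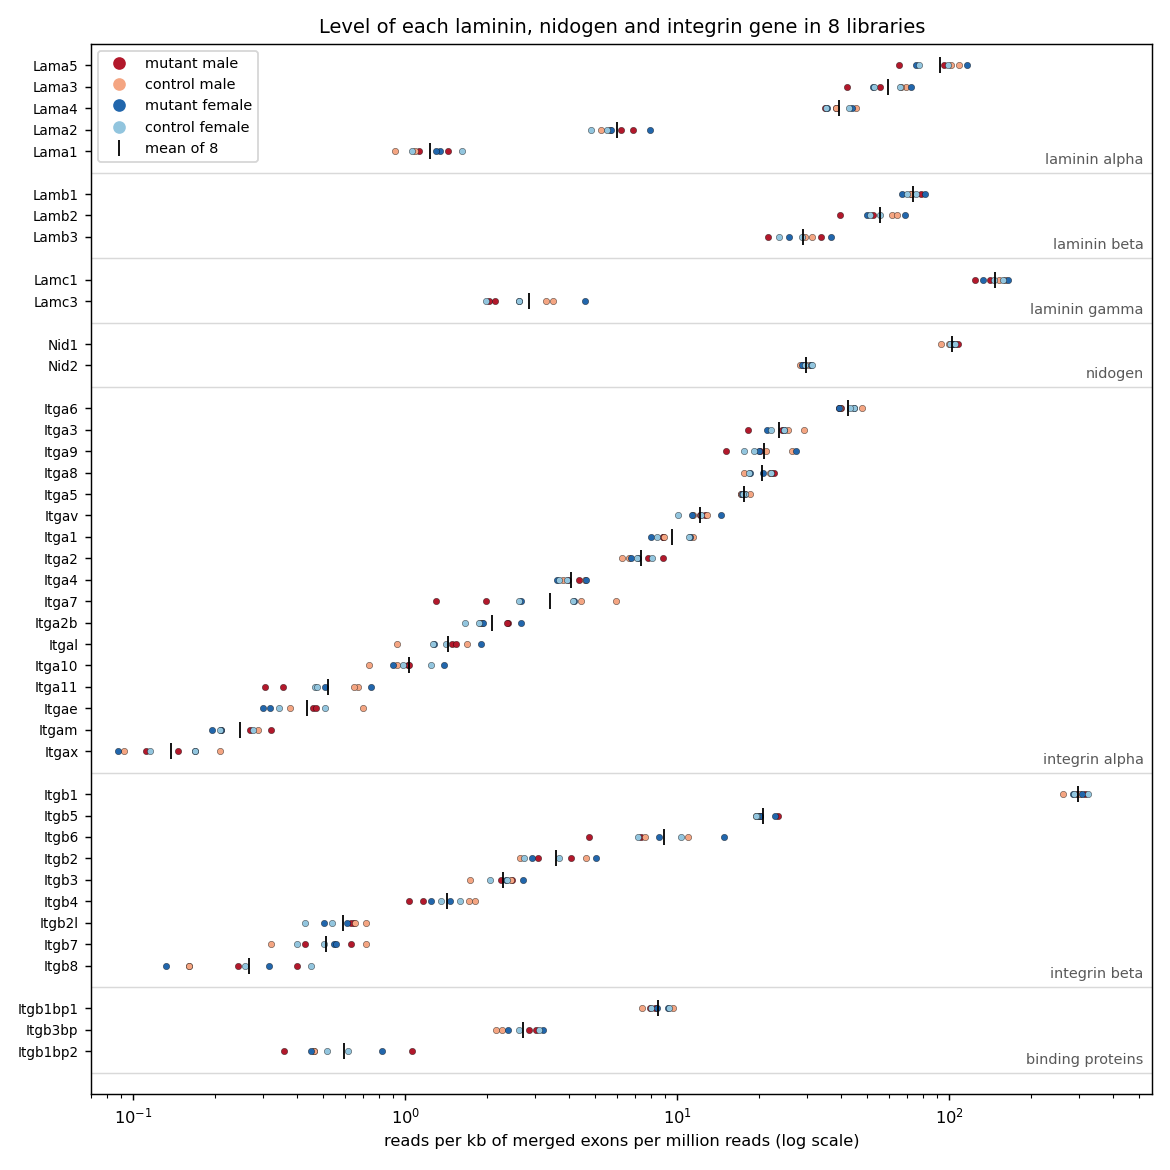
Level of 41 of the 42 genes in each of 8 libraries, as RPKM over merged exons on a log axis, grouped by class; points are libraries and the tick is the mean of 8. Itgb1 (298) and Lamc1 (148) have the highest means, and the mutant male points of Itga7 lie to the left of those of the other groups.

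In male lungs, 1 of the 42 genes passed the test between mutants and controls: Itga7, the laminin receptor α chain best known from muscle, fell to 13.3 ± 3.92 CPM in mutant males, against 42 ± 8.86 CPM in control males (SD, n = 2 each). That is 2.38% of the members, against 1.29% of all genes tested, by edgeR's quasi-likelihood test at an adjusted p under 0.05. Library numbers 1 and 2 recur in every group, but the labels do not say what they mark. A block for the number was chosen from these data, in which deviations of same-numbered mutant and control males correlated least (r = 0.180). Values with the block depend on that choice. When the library number, 1 or 2, was added to the fit as a block, 13 members passed (31.0%, against 16.7% of all genes), of which 11 fell (26.2%, against 9.43%) and 2 rose (4.76%, against 7.3%). Those that fell in that fit included the laminin chains Lama3, Lama5, Lamb2 and Lamc3 and the integrin chains Itga3, Itga7, Itga9, Itga11, Itgb4 and Itgb6; Itga2 and Itgb8 rose.

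Itga7 (GRCm38 chr10:128933818-128958282, plus strand) had 16.1 and 10.5 CPM in mutant males, against 48.3 and 35.8 CPM in control males. It had 33.7 and 21.5 CPM in mutant females, against 33.6 and 21.3 CPM in control females. The mutant males lay below all 6 other libraries, and the 2 female groups covered the same range. The log2 fold change in males was -1.66 ± 0.31 (SE), with an adjusted p of 0.0465 by edgeR's quasi-likelihood test and 4.12e-06 with the block. The call was lost without any 1 of the 4 male libraries: the adjusted p by edgeR was 0.103, 0.305, 0.267 and 0.0774 without mutant male 1, mutant male 2, control male 1 and control male 2, with log2 fold changes of -2.0 to -1.38 in all 8 omissions of a library. By limma-voom it was 0.0519. In females the log2 fold change was 0.01 ± 0.30. The difference between the male and the female effect was -1.67 ± 0.43, with an adjusted p of 0.338 by edgeR's quasi-likelihood test and 0.00016 with the block. In a whole lung, fewer cells of a type and less RNA per cell cannot be told apart, for this gene or any other below.

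Itga7 is 1 of 3 laminin-binding α chains among the members, and the other two had values on the same side in males. Itga3 had 139 and 104 CPM in mutant males, against 167 and 146 CPM in control males (log2 fold change -0.37 ± 0.15, adjusted p by edgeR 0.242, and 0.0138 with the block). Itga6, the most abundant of them, had 362 and 356 CPM in mutant males, against 434 and 360 CPM in control males, so the groups overlapped. Its log2 fold change was -0.14 ± 0.12 (adjusted p by edgeR 0.544). Their β partner Itgb1 had 1294 and 1201 CPM in mutant males, against 1238 and 1075 CPM in control males, with overlap and a log2 fold change of 0.11 ± 0.13.

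Itgb4, which pairs only with α6 and ties laminin to keratin filaments, had 8.13 and 7.28 CPM in mutant males, against 12.6 and 12.1 CPM in control males. Its counts were 149 to 227 reads in these libraries, and 7.66% of its exon length overlaps an antisense gene, whose reads cannot be told apart if counting ignored strand. The log2 fold change was -0.68 ± 0.17 in males (adjusted p by edgeR 0.0917, and 0.00875 with the block) and -0.12 ± 0.17 in females. Female libraries ranged from 8.74 to 10.2 CPM in mutants and from 9.53 to 11.2 CPM in controls, which overlap.

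**Figure D2:**
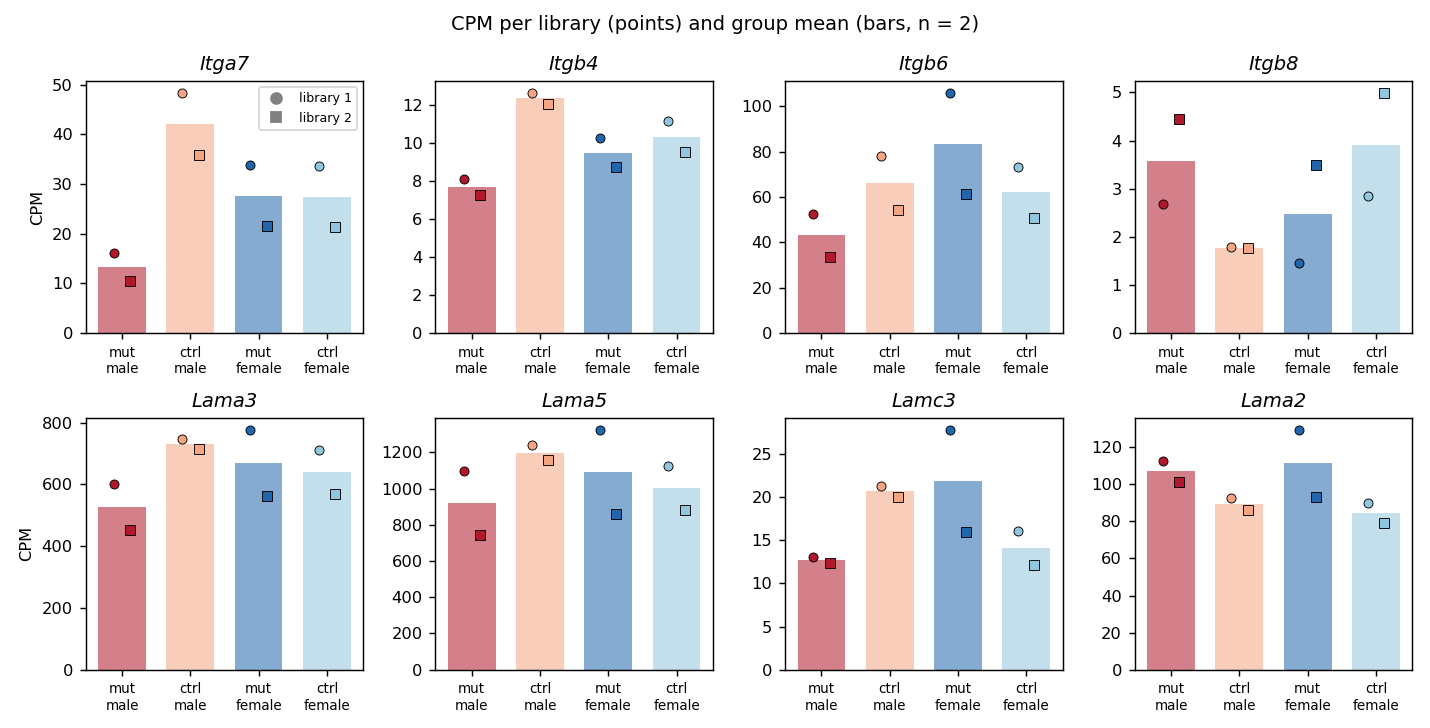
CPM in each library (circle, library 1; square, library 2) and group means (bars, n = 2) for 4 integrin and 4 laminin genes, with the mutant left of the control in each sex. Itga7 averages 13.3 CPM in mutant males and 42 CPM in control males, while the bars of mutant and control females are nearly level; Lama2 is higher in mutants of both sexes.

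Lama3 and Lamb3, chains of the laminin that anchors epithelium, were lower in mutant males in the fitted values, neither past the test. Lama3 had 601 and 452 CPM in mutant males, against 745 and 716 CPM in control males (log2 fold change -0.47 ± 0.19, adjusted p by edgeR 0.237, and 0.00786 with the block). Its groups did not overlap, which held for 52.4% of all genes tested in males. Lamb3 had 225 and 143 CPM in mutant males, against 195 and 207 CPM in control males, and the groups overlapped. Its log2 fold change of -0.13 ± 0.23 turned positive without mutant male 2.

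The chains of the widely used laminins with α5 passed only with the block or in neither fit. Lama5 had 1096 and 743 CPM in mutant males, against 1237 and 1157 CPM in control males, with a log2 fold change of -0.38 ± 0.24 (adjusted p by edgeR 0.423, and 0.0347 with the block). Lamb2 had 321 and 242 CPM in mutant males, against 375 and 393 CPM in control males (-0.45 ± 0.18, adjusted p by edgeR 0.223, and 0.0202 with the block). Lamb1 and Lamc1 did not pass in either fit, at 0.06 ± 0.12 and -0.24 ± 0.14. In both Lama5 and Lamb2 the second mutant male library lay well below the first. Their male groups did not overlap, nor did those of 52.4% of all genes tested.

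Lamc3, a γ chain of low level in these lungs, had 13.0 and 12.4 CPM in mutant males, against 21.3 and 20.0 CPM in control males. It had 27.8 and 15.9 CPM in mutant females, against 16 and 12.1 CPM in control females. The male values were tight and separate, while in females mutant library 2 fell within the control range. The log2 fold change was -0.70 ± 0.25 in males (adjusted p by edgeR 0.189, and 0.0164 with the block) and 0.64 ± 0.25 in females (adjusted p by edgeR 1).

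Over the 11 laminin chains, 8 log2 fold changes were negative in males, against 8844 of all 18164 genes tested. The median of the 11 was -0.24, against a median of 0.01 over all genes tested. In females 9 of the 11 were positive, against 8952 of the 18164 genes, with a median of 0.07, against 0.00 over all genes. The laminin chains together took 0.513% and 0.419% of reads in mutant males, against 0.556% and 0.553% in control males; they took 0.598% and 0.460% in mutant females, against 0.532% and 0.473% in control females. Neither nidogen passed in either fit. Nid1 had 733 and 749 CPM in mutant males, against 651 and 696 CPM in control males (0.14 ± 0.10, adjusted p by edgeR 0.484), and Nid2 averaged 152 CPM in both male groups.

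Integrin chains that receive matrix other than laminin had log2 fold changes in both directions in males, none past the test without the block. Itga11, a collagen receptor chain of fibroblasts, had 1.83 and 1.56 CPM in mutant males, against 3.45 and 3.32 CPM in control males, from 32 to 62 reads a library. Its log2 fold change was -1.0 ± 0.27 (adjusted p by edgeR 0.115, and 0.0220 with the block). Itga2, the epithelial and platelet collagen receptor chain, had 55.7 and 63.4 CPM in mutant males, against 47.4 and 44.7 CPM in control males (0.37 ± 0.12, adjusted p by edgeR 0.149, and 0.0304 with the block). Itga9 had 156 and 116 CPM in mutant males, against 204 and 164 CPM in control males (-0.44 ± 0.19, adjusted p by edgeR 0.259, and 0.00867 with the block). None of these 3 genes overlapped between the male groups, nor did 52.4% of all genes tested. For Itga9 the gap was that between 156 and 164 CPM.

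Among the chains of TGF-β activating integrins, Itgb6 and Itgb8 lay on opposite sides. Itgb6 had 52.6 and 33.7 CPM in mutant males, against 78.3 and 54.2 CPM in control males. It had 106 and 61.2 CPM in mutant females, against 73.4 and 50.9 CPM in control females. In every group the library numbered 1 was the higher, and the groups of males were separated by less than the distance between libraries of a group. Its log2 fold change was -0.62 ± 0.32 in males (adjusted p by edgeR 0.330, and 0.00119 with the block) and 0.43 ± 0.32 in females (adjusted p by edgeR 1). Itgb8, which shares the αv partner, had 2.69 and 4.44 CPM in mutant males, against 1.78 and 1.77 CPM in control males. It had 1.46 and 3.5 CPM in mutant females, against 2.85 and 4.99 CPM in control females. Its log2 fold change was 1.01 ± 0.46 in males (adjusted p by edgeR 0.278, and 0.0433 with the block) and -0.66 ± 0.44 in females, where the groups overlapped. Itgav, Itgb3 and Itgb5, the other chains of αv integrins, had log2 fold changes of 0.03 ± 0.15, 0.18 ± 0.19 and 0.14 ± 0.11 in males.

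The leukocyte chains Itgal, Itgam, Itgax, Itgb2, Itgb7, Itgae and Itga4 had log2 fold changes from -0.23 to 0.25 in males, none past the test, and overlapped between the male groups. Itgb2 had 12.4 and 9.38 CPM in mutant males, against 14.1 and 8.08 CPM in control males. The summed level of 11 macrophage markers was 389 and 342 CPM in mutant males, against 578 and 271 CPM in control males, and none of the 11 passed the test. Of these sums, Lyz2 alone held 187 and 145 CPM in mutant males, against 368 and 121 CPM in control males. It is also on the list of type 2 alveolar markers, so the sum does not measure macrophages alone. For Itgam, 68.7% of the exon length is shared with a predicted gene on the same strand, and for Itga10 33.5%, so their counts depend on how shared reads were assigned and are uncertain.

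The remaining chains did not pass in males in either fit. Lama1 had 10.9 and 14.0 CPM in mutant males, against 8.85 and 10.5 CPM in control males (0.36 ± 0.23), and Lama4 had 462 and 424 CPM in mutant males, against 548 and 462 CPM in control males (-0.19 ± 0.15). Itga8, which binds nephronectin in the embryo, had 167 and 163 CPM in mutant males, against 161 and 130 CPM in control males (0.18 ± 0.14). Itga1 had 166 and 165 CPM in mutant males, against 214 and 166 CPM in control males (-0.20 ± 0.19), and Itga10, a collagen receptor chain of cartilage, had 5.33 and 5.37 CPM in mutant males, against 4.84 and 3.82 CPM in control males (0.30 ± 0.26). Itga5 was the steadiest α chain, with 84.9 to 91.6 CPM over all 8 libraries. Of the genes that are not subunits, Itgb1bp1, an inhibitor of β1 integrin activation, had 29.3 and 28.1 CPM in mutant males, against 34.2 and 26.4 CPM in control males, and Itgb1bp2, a muscle protein, had 12 and 39 reads in mutant males, against 15 reads in each control male, too few to place it.

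Across the transcriptome 52.4% of genes had no overlap between the 2 male groups, and 25 of the 42 members did (59.5%). Of these, 15 were lower in mutants (35.7%, against 25.5% of genes) and 10 higher (23.8%, against 26.9%). At an unadjusted p under 0.05, 10 members (23.8%) stood against 19.3% of all genes. Log2 fold changes were positive for 18 members and negative for 24, against 9320 positive and 8844 negative of all 18164 genes. Itgb3bp, a centromere protein named for its binding to Itgb3, had 13.2 and 14.0 CPM in mutant males, against 10.02 and 10.5 CPM in control males (0.41 ± 0.18, adjusted p by edgeR 0.260).

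Marker genes of other kinds also differed between the male groups. Of all genes tested, 0.259% rose and 1.04% fell in mutant males by edgeR's quasi-likelihood test, and 7.3% rose and 9.43% fell with the block. Of 14 markers of type 1 alveolar cells, the flat gas-exchange cells, 5 fell in mutant males and none rose, with a summed level of 4580 and 3562 CPM in mutant males, against 8308 and 6176 CPM in control males. Of 13 markers of the lung epithelium as a whole 3 fell and none rose, with sums of 1952 and 1656 CPM in mutant males, against 2495 and 2627 CPM in control males. Club cell markers (6 of 8 lower), ciliated cell markers (4 of 10 lower) and type 2 alveolar markers (2 of 14 lower) differed likewise, and 2 of 6 cartilage markers rose. Of 9 smooth muscle markers 1 fell, with sums of 1252 and 1292 CPM in mutant males, against 1572 and 1555 CPM in control males. All 15 cell cycle genes had positive log2 fold changes, none past the test and 15 past it with the block, with sums of 2662 and 3612 CPM in mutant males, against 1623 and 2248 CPM in control males. In the other lists, 1 of 6 mesothelial markers fell, 1 of 4 basal cell markers rose and 1 fell, and none of the endothelial, fibroblast, neutrophil, lymphocyte, platelet, erythroid, Schwann and neuronal, striated muscle and ribosomal protein genes passed in males. No gene found from these lists was at 0 reads in any library, and the part of cell composition or stage in the laminin and integrin values was not tested.

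Over the 8 libraries, the log2 level of several members followed the type 1 alveolar marker score, which is the mean of the 14 markers' log2 CPM, each centred on its mean. Pearson's r was 0.995 for Itga7 (Spearman 0.905; 0.991 without the 2 libraries farthest from the median score), 0.957 for Itgb4 and 0.915 for Lama3, and -0.899 for Nid1. Of all 18164 genes tested, 4 had a higher r with that score than Itga7. An r above 0.8 was found for 11 of 42 members (26.2%), against 9.8% of genes tested. In each of the 4 groups, library 1 had both the higher score and the higher Itga7 level. Itgb4 was the member closest to the lung epithelium score (r = 0.935), followed by Itga7 (0.914), so neither gene followed the type 1 score alone. Itgal and Itgb2 were closest to the macrophage score (0.906 and 0.895), and Itgb8 to the cell cycle score (0.951). With the cell cycle score 9 members had an r below -0.8, among them Itga9 (-0.933), Lama5 (-0.912) and Lama4 (-0.899). Library 2 had the higher cell cycle score in each group. The share of all genes below -0.8 was not taken for this score, so the 9 cannot be read as a trait of the members. No member reached 0.8 with the smooth muscle score. Values for the type 2, club and ciliated cell scores are not given here. These values describe 8 libraries that share their groups and library numbers, and no test was made of them.

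**Figure D3:**
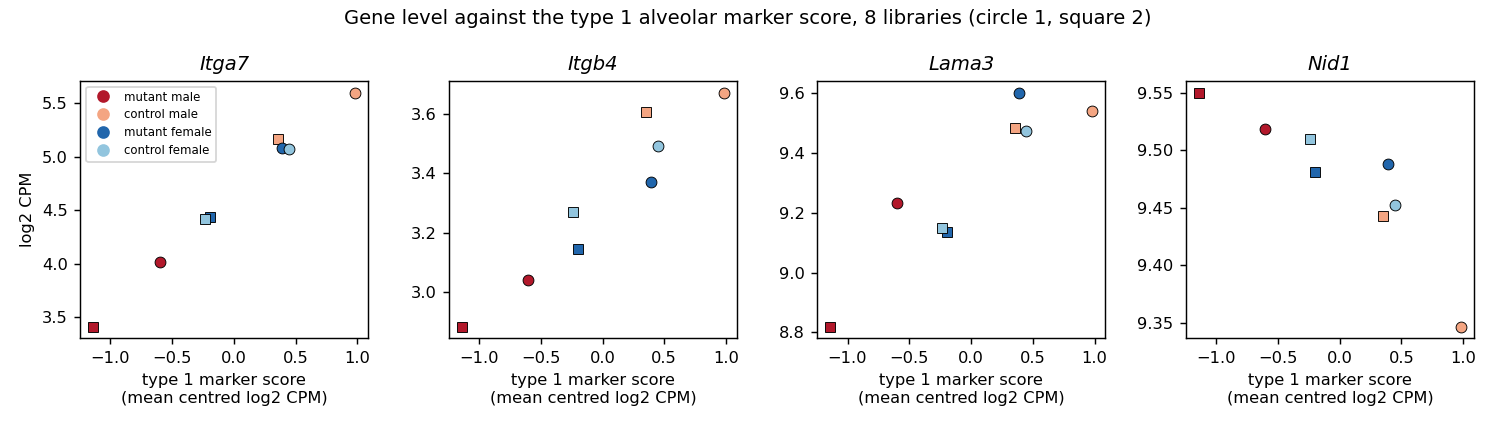
Log2 CPM of Itga7, Itgb4, Lama3 and Nid1 against the type 1 alveolar marker score in each of 8 libraries (colour, group; circle, library 1; square, library 2). Itga7 runs along a near straight line (r = 0.995) with mutant males at the low end and control male 1 at the high end, and Nid1 runs the other way (r = -0.899).

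In female lungs no member passed the test, and neither did any other gene (0% of genes tested by edgeR's quasi-likelihood test at an adjusted p under 0.05). With the block, 0 members and 0.0771% of genes passed. At an unadjusted p under 0.05 there were 2 members, Lamc3 and Lama2, both higher in mutants (4.76%, against 1.08% of all genes that were higher at that p). Lama2, the α chain of muscle and mesenchymal basement membranes (GRCm38 chr10:26980036-27619758, minus strand), had 129 and 93.3 CPM in mutant females, against 89.9 and 79.0 CPM in control females (0.40 ± 0.16, adjusted p by edgeR 1). Itga2b, the platelet fibrinogen receptor chain, had 10.5 and 14.5 CPM in mutant females, against 9.06 and 10.2 CPM in control females (0.38 ± 0.18, adjusted p by edgeR 1). Of all 42 members, 7 did not overlap between the female groups (16.7%, against 21.9% of genes tested).

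Mutant female 1 was the library with the highest CPM for 16 of the 42 members, among them Lama5 and Itgb6, and mutant male 2 the one with the lowest for 13. Control male 1 was highest for 9 members and control male 2 lowest for 10. The same tally was not made over all genes, so it may not be particular to the members. Without mutant female 1 the female log2 fold changes of Lama3, Lama5, Lamb2, Lamb3 and Itgb6, among others, turned negative; of the 9 laminin chains that were positive in females, 7 turned negative without that library and 2, Lama2 and Lamc3, stayed positive. Without control female 2, 5 of the 9 turned negative, Lama3 and Lama5 among them.

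**Figure D4:**
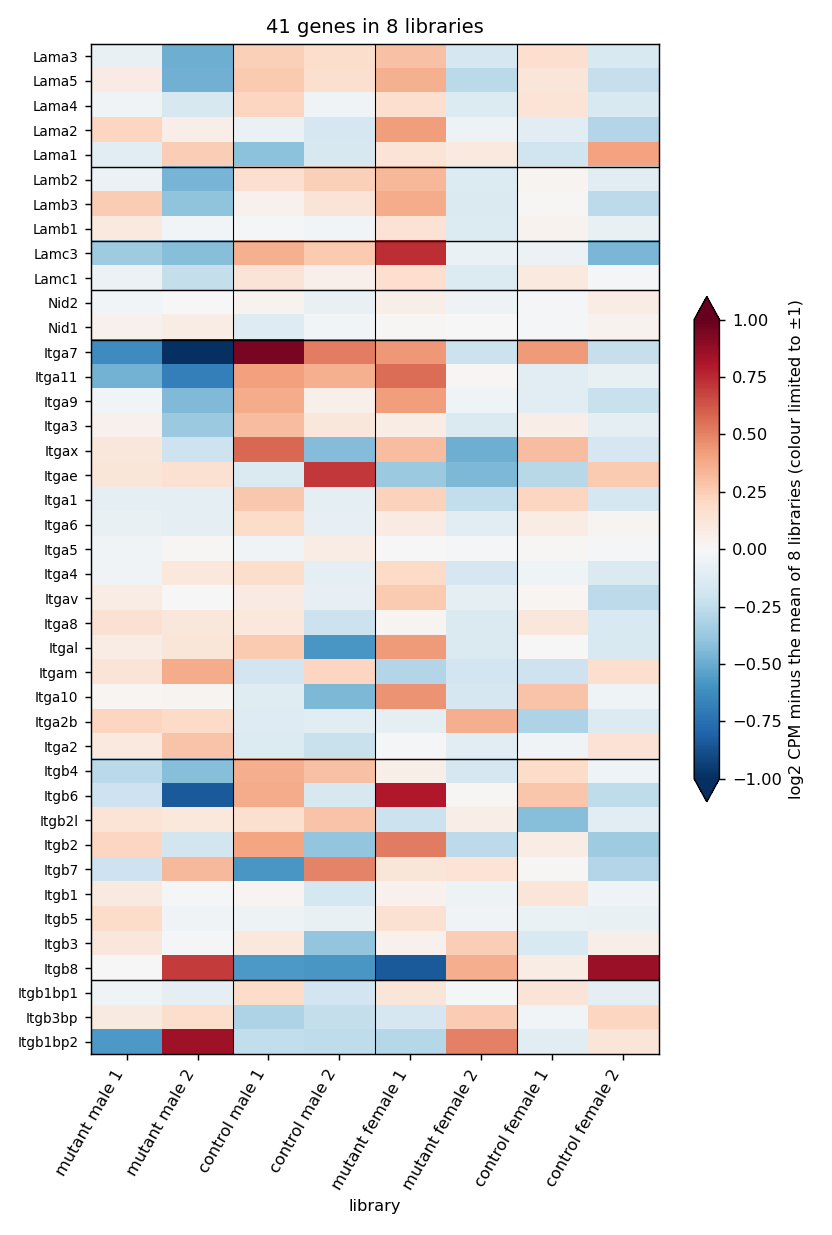
Log2 CPM of 41 of the 42 genes minus each gene's mean over 8 libraries, with colour limited to ±1; genes are grouped by class and sorted within a class by the log2 fold change in males. Lama5 and Itgb6 are highest in mutant female 1, and the deepest blue is Itga7 in mutant male 2.

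The effect in males and the effect in females did not differ past the test for any member, nor for any gene (0% of genes tested by edgeR's quasi-likelihood test). With the block 9 members passed (21.4%, against 9.33% of all genes): 8, among them Itga7, Itga9, Itga11, Itgb6, Lama3, Lamb2 and Lamc3, had a lower log2 fold change in males than in females (19.0%, against 5.41% of all genes), and Itgb8 a higher one (2.38%, against 3.92%). The largest differences were those of Itga7, given above, Itgb8 at 1.67 ± 0.64 (adjusted p by edgeR 0.374, and 0.0259 with the block), Itga11 at -1.41 ± 0.38 (0.345, and 0.0320 with the block) and Lamc3 at -1.34 ± 0.35 (0.340, and 0.00564 with the block). Itga9 and Itga11 were lower in both mutant male libraries than in both control male libraries and higher in both mutant female libraries than in both control female libraries. This separation, lower in males and higher in females, held for 2 of 42 members (4.76%), against 2.73% of all genes. In females Itga9 had 211 and 154 CPM in mutants, against 147 and 136 CPM in controls, and Itga11 had 3.85 and 2.60 CPM in mutants, against 2.38 and 2.44 CPM in controls.

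**Figure D5:**
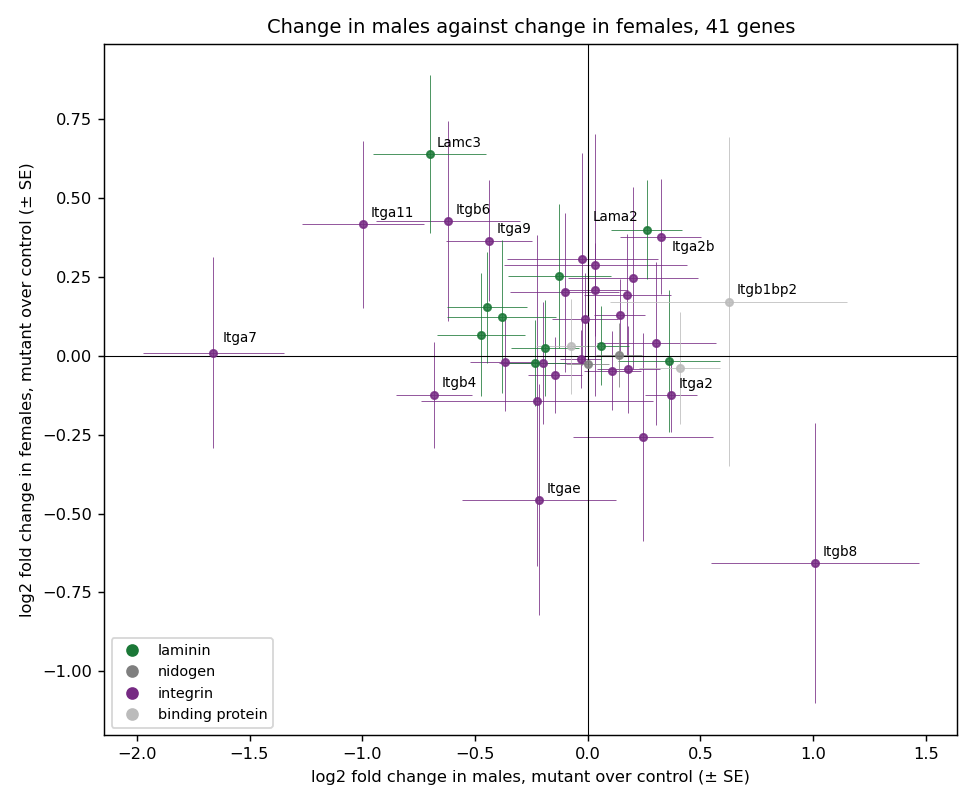
Log2 fold change of mutant over control in males (x axis) and in females (y axis) for 41 of the 42 genes, with SE bars, coloured by class. Itga7 lies farthest left (-1.66 in males, 0.01 in females), Lamc3, Itgb6, Itga9 and Itga11 lie left and above 0, Lama2 and Itga2b are positive in both sexes, and Itgb8 is right and below 0.

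With both sexes in 1 fit, no member passed between mutants and controls, nor any other gene (0% of genes tested by edgeR's quasi-likelihood test; 0 members and 0.0165% of genes with the block). Lama2, Itga2b and Itgb5 were higher in all 4 mutant libraries than in all 4 control libraries (7.14% of members, against 1.65% of genes). Lama2 had 113, 101, 129 and 93.3 CPM in mutants, against 92.4, 86.1, 89.9 and 79.0 CPM in controls. The lowest mutant library, at 93.3 CPM, was close to the highest control library, at 92.4 CPM. An antisense gene overlaps 3.86% of the exon length of Lama2. Summed platelet markers were 21.5, 24.9, 20.7 and 24.9 CPM in mutants, against 23.5, 17.9, 20.7 and 22.6 CPM in controls, and overlapped, with none of 10 past the test. The summed fibroblast markers, led by Col1a1, Col1a2 and Macf1, also overlapped, with none of 11 past it. Macf1, the largest term, held 1648, 1657, 2079 and 1859 CPM in mutants, against 2523, 1945, 2051 and 1712 CPM in controls. Its log2 fold change in males was -0.43, against 0.41 for Pdgfra. The sum thus weighs Macf1 most and is no measure of fibroblasts alone. Of these 11, 7 had positive and 4 negative log2 fold changes. Among them Pdgfra did not overlap, with 390, 380, 433 and 327 CPM in mutants, against 321, 259, 308 and 264 CPM in controls. The log2 fold changes were 0.33 ± 0.11 for Lama2 (adjusted p by edgeR 0.752), 0.35 ± 0.13 for Itga2b (0.786) and 0.14 ± 0.08 for Itgb5 (0.901). Falls were as large: the lowest log2 fold change was -0.82 among integrin α chains and -0.40 among β chains. Itgb4 was among the 3 members with the smallest p. At an unadjusted p under 0.05 by edgeR, 2 members were higher (4.76%, against 2.31% of genes) and 2 lower (4.76%, against 3.53%). In all 4 mutant libraries 0 members were lower, against 1.74% of genes. The authors' deposited table, for which the sources used here give no model terms, holds 3 members at a false discovery rate under 0.05 (7.14%, against 4.05% of its genes). In the authors' deposited table Itga7 has a log2 fold change of -0.79 (false discovery rate 2.5e-06), Lama2 one of 0.34 (0.00054) and Itgb4 one of -0.39 (0.0395).

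Between males and females, across both genotypes, no member passed the test, against 0.0385% of genes tested. Itgb2l, a β chain similar to the leukocyte chain Itgb2, was the member with the smallest p: it had 2.73 to 3.10 CPM in 4 male libraries and 1.86 to 2.65 CPM in 4 female libraries, with a log2 difference of 0.35 ± 0.17 and an adjusted p of 1 by edgeR. It was the only member whose sexes did not overlap (2.38%, against 1.31% of genes). Itgae was next at 0.45 ± 0.24 and then Itgb6 at -0.43 ± 0.28, both with overlap.

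Partners of these genes were read from lists chosen for the pathway. Their counts stand beside 0.259% of all genes that rose and 1.04% that fell in males, and 7.3% and 9.43% with the block. Of 25 other basement membrane genes, 0 passed in males, and 4 rose and 7 fell with the block. Col18a1, a basement membrane collagen, had 987 and 978 CPM in mutant males, against 407 and 596 CPM in control males (0.97 ± 0.19, adjusted p by edgeR 0.0538). Tinagl1, a laminin-binding matrix protein, had 87.9 and 50.8 CPM in mutant males, against 202 and 162 CPM in control males (-1.39 ± 0.34, adjusted p by edgeR 0.0863). Of 14 genes on a list of laminin receptors outside the integrins and proteins associated with them, 1 rose and 0 fell. Sdc2, a heparan sulphate proteoglycan, had 155 and 168 CPM in mutant males, against 107 and 109 CPM in control males (0.58 ± 0.09, adjusted p by edgeR 0.0327). Bcam, a receptor for laminin α5, had 534 and 389 CPM in mutant males, against 716 and 742 CPM in control males (-0.66 ± 0.18, adjusted p by edgeR 0.117, and 0.00197 with the block).

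Of 23 integrin ligands outside the laminins, 1 fell and 0 rose: Icam1, the ligand of leukocyte integrins, had 72.0 and 46.4 CPM in mutant males, against 202 and 146 CPM in control males (-1.56 ± 0.25, adjusted p by edgeR 0.0327). Of 37 genes on a list of integrin adhesion and actin linkers, not all of them direct links, 0 passed in males. With the block 1 rose and 10 fell, against 7.3% and 9.43% of all genes. Of 4 hemidesmosome genes 0 passed, and Plec and Dst, which tie Itgb4 to the cytoskeleton, fell with the block (log2 fold changes -0.45 ± 0.12 and -0.46 ± 0.10). In females none of these 5 lists held a gene past the test in either fit.

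Promoter sequences were read for members with an entry in RefSeq (GRCm38.p6), since TGF-β receptors act on genes through SMAD proteins, which bind the SMAD box. An entry covers 250 bases before to 50 after a listed start of a gene, and 27 of 42 members had 1 or more, 30 entries in all. A listed start need not be the outermost one: the entries of Lama2 and Itga9, among others, lie inside the gene as placed by GENCODE. The SMAD box CAGAC, searched on both strands, was in 20 of 30 member entries (66.7%), against 49.6% of 32851 promoters of the same length. The AP-1 site TGACTCA was in 2 of 30 (6.67%), against 5.20%, and the TEAD site CATTCC in 4 of 30 (13.3%), against 14.7%. These sequences are those of both β chains of the TGF-β activating integrins that lay on opposite sides in males, of Lama2, which was higher in all mutant libraries, and of Lamb2, which fell in males with the block. Capitals mark the SMAD box or its reverse complement GTCTG, and a match describes these letters only.
Itgb6, GRCm38.p6 chr2:60722554-60722853, minus strand: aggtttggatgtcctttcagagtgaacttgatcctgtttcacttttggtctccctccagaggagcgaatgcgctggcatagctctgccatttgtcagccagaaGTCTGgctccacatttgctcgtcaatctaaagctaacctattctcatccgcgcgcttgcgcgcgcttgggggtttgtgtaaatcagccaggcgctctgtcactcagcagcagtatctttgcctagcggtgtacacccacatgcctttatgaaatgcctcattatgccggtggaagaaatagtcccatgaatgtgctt
Itgb8, GRCm38.p6 chr12:119238227-119238526, minus strand: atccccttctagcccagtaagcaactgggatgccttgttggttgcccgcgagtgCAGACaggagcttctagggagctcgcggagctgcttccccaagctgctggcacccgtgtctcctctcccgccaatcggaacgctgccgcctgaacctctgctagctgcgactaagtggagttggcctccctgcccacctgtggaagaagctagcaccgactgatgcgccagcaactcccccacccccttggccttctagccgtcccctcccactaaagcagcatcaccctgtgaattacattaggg
Lama2, GRCm38.p6 chr10:27616893-27617192, minus strand: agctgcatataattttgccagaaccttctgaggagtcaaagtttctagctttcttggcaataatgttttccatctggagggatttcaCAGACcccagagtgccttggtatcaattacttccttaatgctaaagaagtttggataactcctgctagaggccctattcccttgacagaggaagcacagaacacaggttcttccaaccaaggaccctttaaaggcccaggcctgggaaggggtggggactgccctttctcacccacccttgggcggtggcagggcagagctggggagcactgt
Lamb2, GRCm38.p6 chr9:108479612-108479911, plus strand: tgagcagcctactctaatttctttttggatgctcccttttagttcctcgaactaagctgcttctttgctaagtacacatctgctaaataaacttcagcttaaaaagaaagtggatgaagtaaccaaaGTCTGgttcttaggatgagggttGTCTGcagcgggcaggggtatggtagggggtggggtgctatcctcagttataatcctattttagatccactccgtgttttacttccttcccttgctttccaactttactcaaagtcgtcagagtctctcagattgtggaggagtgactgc
Of these, Itgb6 (the start farther 5′ of its 2 entries), Itgb8 and Lama2 hold 1 SMAD box each and Lamb2 holds 2, and none holds an AP-1 or TEAD site. The other Itgb6 entry holds 0 SMAD boxes. So do the entries of Itga2b and Itgb5, also higher in all mutant libraries, and of Itga11, which fell in males with the block. Among other members that passed with the block, Itga9 and Itga2 hold 3 each and Lama5 holds 1. The printed sequences thus do not stand for all members that differed.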

How the data were processed

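Groups follow the sample labels. Per the file headers, the table deposited by the authors (19150 genes) gives read counts, RPKM values and gene lengths, beside a comparison of their own with its log2 fold change, mean log2 CPM, likelihood ratio score, p-value and false discovery rate. Tools listed in the submitters' processing notes are edgeR 3.16.5, HTSeq 0.6.1p2, STAR 2.5.2b, Trimmomatic 0.35 and cutadapt 1.13, with no roles; build, annotation and strand setting were not stated in the sources used here. The deposited length came within 10% of the exon length summed over all GENCODE M21 (GRCm38) transcripts for 83.0% of genes. It came within 10% of the merged exon length for 2 of the 42 members. The deposited RPKM thus lowers many genes with several transcripts but not all, since for Itga1 the deposited length was the shorter. Levels were therefore set per kb of merged exons, in place of the deposited RPKM values that the design had named.

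The test was edgeR's (version 4.0.16, R 4.3.3) on the counts as deposited (TMM, filterByExpr with a minimum count of 10, 18164 genes kept, quasi-likelihood F tests, two-sided, Benjamini-Hochberg adjustment over all genes kept at 0.05). Sex-specific effects and their difference came from 4 group means, and the effect over both sexes and the sex effect from an additive model; all 8 libraries shared 1 estimate of the spread. CPM used TMM-adjusted library sizes, log2 CPM a prior count of 2, and an SE is the log2 fold change divided by the square root of F. Fits were tested on simulated counts. Libraries of 1 group differed by 14.1 to 20.4 times the sampling variance and counted separately.

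Library numbers 1 and 2 recur in every group in the labels. Deviations of same-numbered libraries correlated at 0.180 (mutant and control males) to 0.626 over 12793 genes in the 6 pairs of groups, so blocked values are given where they change a call; this pairing comes from the data, and the labels do not say what the number marks.

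The members and the 25 lists (321 symbols) were chosen with earlier results of these data known. Of the 42 members, 1 is not reported here by name, though counts, medians and sums over members include it. Members given per library were those called, the 3 with the smallest p in each comparison and the highest of each class, with others named where their class is described; pathway lists gave up to 3 genes with the smallest p in males. Alternatives were DESeq2 1.42.0, limma-voom (limma 3.58.1), edgeR's likelihood ratio test, other size factors, no filter, the block, single-sex fits and leaving out each library.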

Additional observations from a re-analysis of the deposited data

Results flagged for a closer look

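Of the 44 sets of 4 libraries checked for a library far from the others, 1 was picked out, where chance alone picks about 1 in 20. Itga6, the laminin receptor chain with the highest level among the α chains, had 404 CPM in mutant female 1, against 355, 356 and 362 CPM in the other mutant libraries. That gap was 0.863 of the whole range, above Dixon's critical value for 4 libraries. The 4 control libraries had 360 to 434 CPM.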

How the results depend on the processing

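The direction of the called value, Itga7 in males, held in every setting tried. Depth limits the genes with few reads, such as Itga11, Itgb8 and Itgax. In males the count of genes called was 235, with 855 by DESeq2, 1096 by the likelihood ratio test, 3038 with the block, 422 from male libraries alone and 0 to 245 leaving out 1 library; the count of members was 1, with 0 by limma-voom, 3 by the likelihood ratio test, 13 with the block and 0 to 1 leaving out 1 library. In females 0 genes became 6 by DESeq2, 8 by the likelihood ratio test and 14 with the block, and no setting called a member. For the difference between sexes 0 genes became 188, 196 and 1695 in those 3 settings and 0 to 1 leaving out 1 library, and 0 members became 2, 1 and 9. Over both sexes 0 genes became 2 with DESeq2 size factors, 2 with no filter, 88 by DESeq2, 79 by the likelihood ratio test, 3 with the block, 3 with no term for sex and 0 to 3 leaving out 1 library; the authors' deposited comparison, added after seeing the data, holds 775 genes and 3 members. At an unadjusted p under 0.05, edgeR's quasi-likelihood test had 290 genes in females, 2266 in the difference and 1061 over both sexes. The sex effect called 7 genes, and 5 to 8 leaving out 1 library. The block changed no other call of a member than those given in the report. Leaving out 1 library turned the sign of uncalled log2 fold changes for 14 members in males, 27 in females, 19 in the difference, 19 over both sexes and 30 in the sex effect. Among members named in the report these were, for example, in females Itga3 (-0.13 to 0.084), Itgb6 (-0.021 to 0.77), Lama3 (-0.19 to 0.28), Lama5 (-0.22 to 0.40), Lamb2 (-0.10 to 0.37) and Lamb3 (-0.030 to 0.49), in males Lamb1 (-0.011 to 0.12) and Lamb3 (-0.49 to 0.16), and in the difference Lama2 (-0.35 to 0.12). The cause was not tested.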
